A study of Mus musculus with 6 samples.

Results

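The genes described here are the mouse solute carriers of the families Slc1, Slc2, Slc3, Slc7, Slc16, Slc38 and Slc43, which move amino acids, glucose and monocarboxylates such as lactate across membranes. They were chosen by symbol alone, which took 64 of the 40879 genes in the count table. CD8 T cells had been sorted from MC38-hPD-L1 tumours (MC38 is a mouse colon carcinoma line) of C57BL/6N mice on day 12, after a photocatalyst had tagged cells with biotin by proximity. Cells with biotin (Biotin+) are described by the submitters as neighbouring the tumour and cells without it (Biotin-) as distal to it, and each group held 3 poly-A RNA libraries. Both groups came from tumours of the same kind and strain, while age, sex and animals per library are not given. The 64 transporters took 0.292% to 0.38% of all counts in the Biotin+ libraries and 0.323% to 0.39% in the Biotin- libraries, so that the groups overlapped in the total.

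Activated T cells import glucose, glutamine, leucine, arginine and cystine to grow and divide, and they export lactate made by glycolysis. Many amino acid exchangers of the Slc7 family work as dimers: a light chain (Slc7a5 to Slc7a13) carries the substrate, and a heavy chain of the Slc3 family brings it to the plasma membrane. Leucine that enters through LAT1, the dimer of Slc7a5 and Slc3a2, and arginine sensed at the lysosome by Slc38a9 feed into activation of mTORC1, the kinase complex that drives growth.

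The upstream region is shown for the member called higher, the member called lower, and Slc7a11, which was lower in a fit with replicate blocks and holds the element named next on both strands. The windows run from 250 bases before to 50 bases after the RefSeq start site in GRCm38.p6, read 5′ to 3′ on the gene's strand. Capitals mark a match to CARE (TGATGNAA on either strand), the element bound by the stress factor ATF4.
Slc16a10, chr10:40142205-40142504, minus strand: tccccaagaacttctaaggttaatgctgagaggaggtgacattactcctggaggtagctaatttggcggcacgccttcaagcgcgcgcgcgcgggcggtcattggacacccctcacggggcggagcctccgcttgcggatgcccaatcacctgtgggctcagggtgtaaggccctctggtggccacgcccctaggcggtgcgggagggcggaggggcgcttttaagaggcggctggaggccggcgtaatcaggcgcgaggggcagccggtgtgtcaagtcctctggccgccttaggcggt
Slc2a10, chr2:165503647-165503946, plus strand: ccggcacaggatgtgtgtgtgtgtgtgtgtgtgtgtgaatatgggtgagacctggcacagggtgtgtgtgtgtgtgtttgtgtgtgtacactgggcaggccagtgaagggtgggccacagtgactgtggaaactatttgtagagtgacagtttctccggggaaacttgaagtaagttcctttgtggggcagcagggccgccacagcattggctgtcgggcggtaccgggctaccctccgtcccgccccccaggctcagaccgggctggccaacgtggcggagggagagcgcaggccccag
Slc7a11, chr3:50443564-50443863, minus strand: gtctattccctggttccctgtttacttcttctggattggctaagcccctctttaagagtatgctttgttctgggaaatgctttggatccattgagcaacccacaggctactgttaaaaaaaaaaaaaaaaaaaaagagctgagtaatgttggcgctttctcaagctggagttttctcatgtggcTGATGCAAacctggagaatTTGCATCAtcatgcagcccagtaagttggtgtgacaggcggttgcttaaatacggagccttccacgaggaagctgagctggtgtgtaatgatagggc
Of the 64 members, 47 had an entry among the RefSeq windows (58 windows). CARE occurred in 4 of the 58 windows (6.9%), in 3 of the 47 genes (Slc7a11, Slc1a4 and Slc7a7), and in 3.97% of all 32851 windows. The E-box CACGTG, bound by MYC and its relatives, occurred in 13.8% of the members' windows and in 7.15% of all, with Slc16a1, Slc38a7 and Slc43a1 as the tested genes that hold it. The hypoxia element core ACGTGC, which shares its first letters with the E-box, occurred in 6.9% against 5.91%, among tested genes in Slc2a1 and Slc16a3. The antioxidant element core TGACNNNGC occurred in 12.1% against 12.4%. Windows of the same gene can overlap, so that a shared site is counted in each, as for CARE in Slc7a7 and the antioxidant core in Slc7a6. The median GC content was 58.2% in the members' windows and 52.7% in all windows, and its part in these shares was not tested. The windows of Slc16a10 and Slc2a10 held none of these 4 motifs. Members without an entry included Slc16a13, Slc16a5, Slc16a6, Slc16a7, Slc1a5, Slc2a3, Slc2a4, Slc38a1, Slc38a3, Slc43a3, Slc7a12, Slc7a13, Slc7a2, Slc7a3, Slc7a4 and Slc7a5.

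Per kilobase of exon, the transporters with the highest transcript levels were the CD98 heavy chain Slc3a2 and its partner Slc7a5. Levels here are CPM (counts scaled to library size, adjusted by TMM) divided by the exon length in GENCODE M21, and the plot of levels per length shows the 20 highest. Averaged over the 6 libraries, Slc3a2 stood at 264 CPM per kilobase, Slc7a5 at 144, the glutamine carrier Slc1a5 at 65.2 and the glucose transporter Slc2a1 at 43.5. The libraries of Slc3a2 ran from 206 to 352 CPM per kilobase and those of Slc7a5 from 108 to 204, so that these neighbours nearly met, whereas Slc1a5 (49.8 to 92.8) lay below every Slc7a5 library. Slc2a1 (33.4 to 56.6) overlapped Slc1a5 above it and Slc38a2 (23.1 to 47.0) below it. Next came Slc38a10 at 29.8 and Slc16a1 at 23.4 CPM per kilobase, and then Slc2a3, Slc16a3, Slc7a1, Slc7a6, Slc16a6 and Slc38a1 between 13.4 and 15.7, which did not differ beyond their spread. With the longest transcript as the length, Slc38a1 moved from rank 13 to rank 7.

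**Figure D1:**
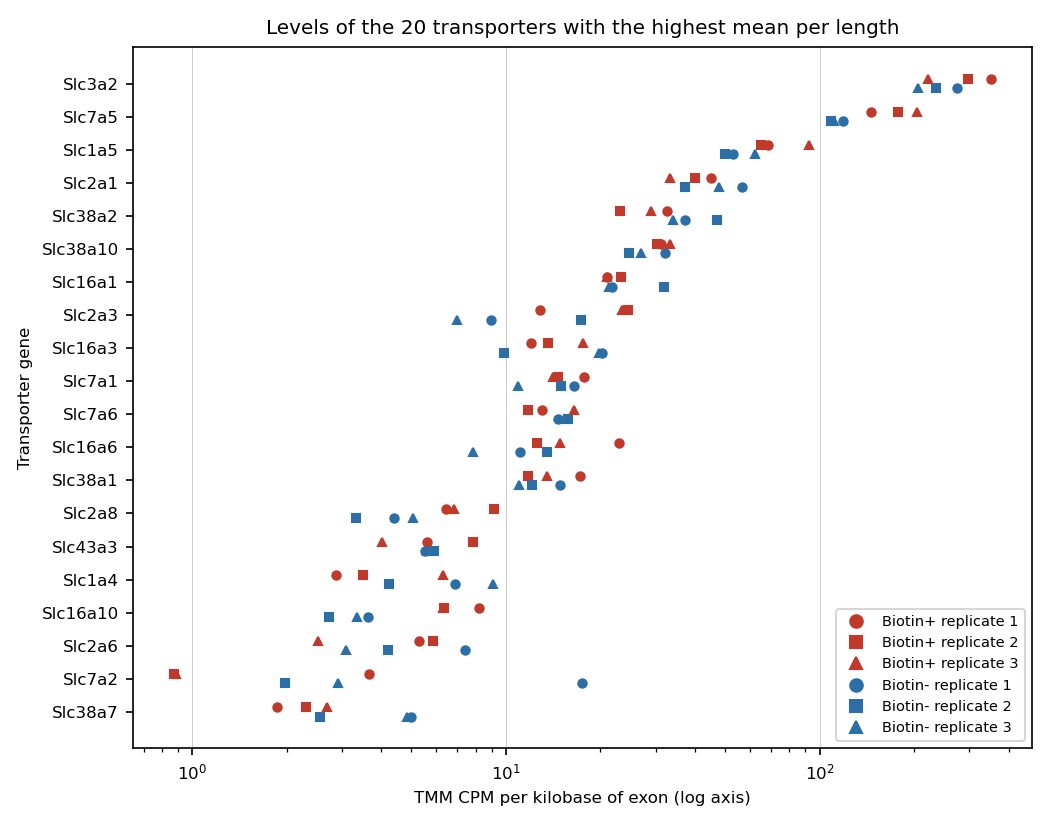
Level of the 20 transporters with the highest mean per length, in TMM CPM per kilobase of exon on a log axis. Each point is 1 library, red for Biotin+ and blue for Biotin-, with the shape giving the replicate number. Slc3a2 and Slc7a5 lie above the rest, and the red points of Slc7a5, Slc1a5, Slc2a8 and Slc16a10 all lie to the right of the blue ones.

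Of the 64 members, 33 had enough counts to be tested, 24 had some counts but too few, and 7 had none in any library, which allows at most 0.0276 CPM over the 6 libraries together (3 counts, counting error only). The 7 were Slc16a12, Slc1a6, Slc2a12, Slc7a9, Slc7a12, Slc7a13 and Slc7a14. Among the 31 untested members were all 5 carriers of glutamate and aspartate (Slc1a1, Slc1a2, Slc1a3, Slc1a6 and Slc1a7), the insulin-regulated glucose transporter Slc2a4 and the second heavy chain Slc3a1. No untested member exceeded 68 counts over the 6 libraries. Together the untested members held 26 to 36 counts in each Biotin+ library and 59 to 146 in each Biotin- library.

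The comparison asks how the transporters of tumour-neighbouring CD8 T cells differ from those of tumour-distal ones. In edgeR's quasi-likelihood test (adjusted p below 0.05 over all 13360 genes tested), 1 of 33 members was higher in Biotin+, Slc16a10, and 1 was lower, Slc2a10. These are 3.03% in each direction, where 1.53% of all genes tested were called higher and 6.72% lower. Log2 fold changes, always Biotin+ minus Biotin-, had a median of -0.08 over the 33 members and 0.06 over all genes. At an unadjusted p under 0.05, 5 members were higher (15.2%, beside 8.62% of all genes) and 4 lower (12.1%, beside 13.9%). The replicate numbers were taken to pair the libraries across the groups, from correlations in these same data and not from a label. With the number as a block in the fit (the blocked fit) 4 members were higher, Slc16a10, Slc7a5, Slc2a3 and Slc2a8, and 4 lower, Slc2a10, Slc7a2, Slc7a8 and Slc7a11. Each direction was 12.1% of the members, beside 5.60% of all genes higher and 12.0% lower in that fit. Ranges of CPM were apart for 7 of the 33 members, 5 above in Biotin+ (13.4% of all genes tested) and 2 below (15.9%), where 29.2% of all genes had ranges apart in either direction. DESeq2 called 2 members higher (3.53% of all genes) and 1 lower (10.4%), and limma-voom also 2 higher (2.48%) and 1 lower (6.98%), the second higher one being Slc7a5 in both.

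The Biotin+ libraries held more T cell transcripts, and the directions depended on how libraries were scaled. All 15 CD8 T cell identity genes tested had positive log2 fold changes (median 0.67, beside 0.06 for all genes tested), and stromal markers were lower. Of the identity genes, 5 were called higher and 10 were not called (1.53% of all genes were higher). With the block 11 were higher (5.60% of all genes). Summed over 18 fibroblast and endothelial markers (without Thy1, which T cells also carry), of which 14 were tested and 9 called lower, the level was 175 to 385 CPM in Biotin+ and 1177 to 1596 CPM in Biotin-, with Fap and Tek at 0 in every Biotin+ library. The 15 macrophage and monocyte markers, 14 tested with 0 called (5 lower in the blocked fit), summed to 597 to 2193 CPM in Biotin+ and 1248 to 4217 CPM in Biotin-, with no marker at 0 in every library. Scaling each library to the identity genes shifted all genes by a median of -0.715 on the log2 scale. Then 0 members were higher (0.217% of all genes) and 10 lower (30.3%, beside 28.4% of all genes), and the members' median was -0.84 beside -0.65 for all genes. In bulk RNA, fewer cells of a type and less RNA per cell cannot be told apart.

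**Figure D2:**
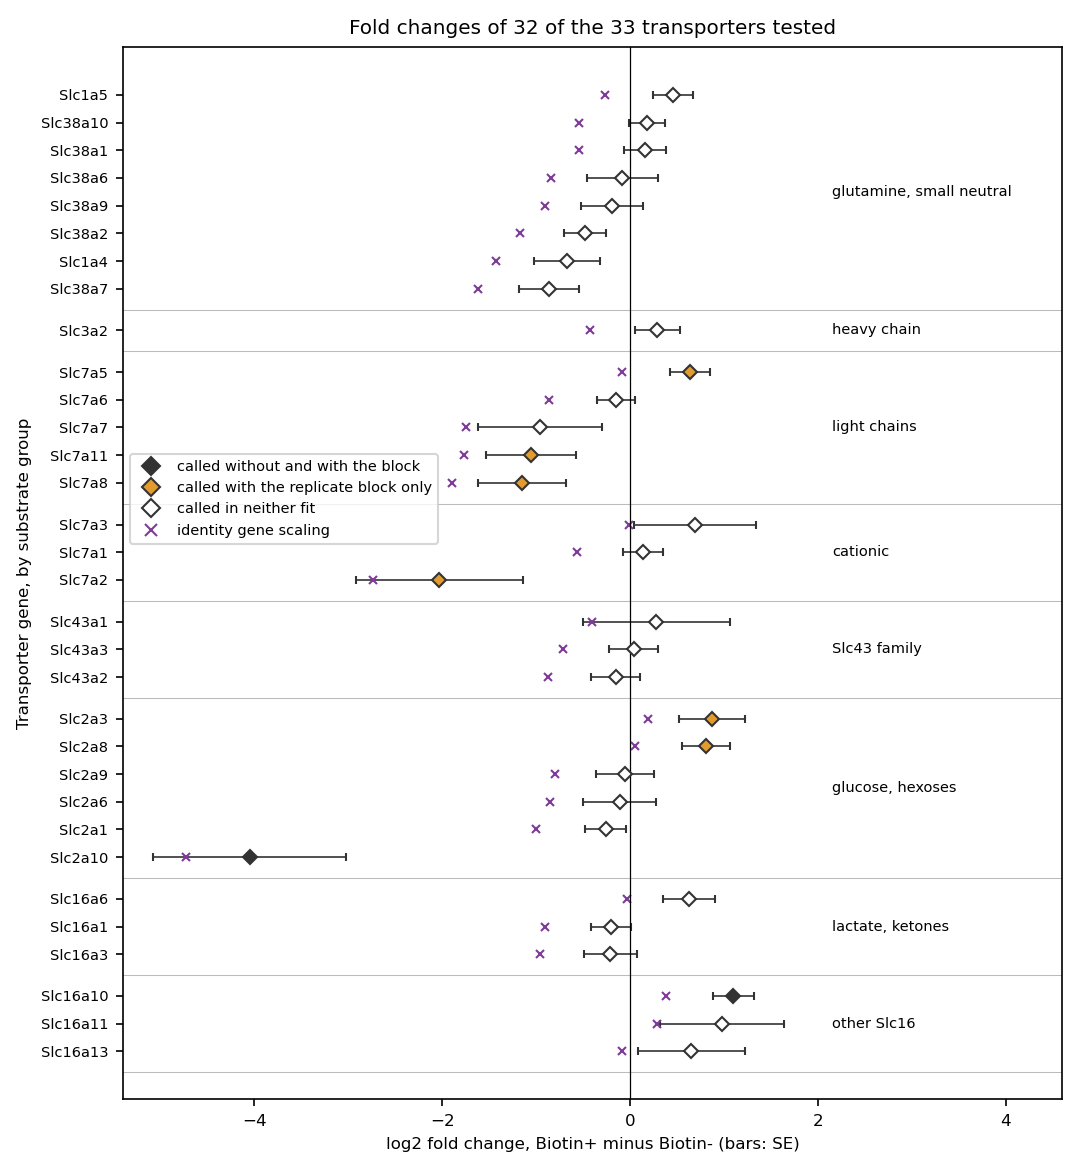
Log2 fold change of 32 of the 33 transporters tested, Biotin+ minus Biotin-, by substrate group. Diamonds with bars are the estimate and SE with TMM scaling, black where called in both fits (Slc16a10 and Slc2a10), orange where called in the blocked fit alone, white where called in neither, and purple crosses are the estimates under identity gene scaling, which lie to the left of the diamonds.

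Slc16a10 was the transporter called higher. It encodes TAT1, also named MCT10, a carrier of aromatic amino acids and thyroid hormones in the monocarboxylate family. Its level was 60.2, 46.8 and 46.3 CPM in Biotin+ replicates 1, 2 and 3 and 26.7, 20.1 and 24.6 CPM in Biotin- replicates 1, 2 and 3. Every Biotin+ library thus lay above every Biotin- library, and the log2 fold change was 1.10 ± 0.22 (SE, edgeR adjusted p = 0.0144, higher in 3 of 3 pairs). In the blocked fit the adjusted p was 0.0012, and the call held without each replicate number in turn. The call was lost without Biotin- replicate 2 (log2 fold change 0.93, edgeR adjusted p = 0.0569) or Biotin- replicate 3 (1.12, edgeR adjusted p = 0.0656), with library size scaling (0.90, edgeR adjusted p = 0.0574), and under identity gene scaling (0.38, edgeR adjusted p = 0.278). Its relatives Slc16a11 and Slc16a13 were scarce, below 4 CPM in every library, with log2 fold changes of 0.98 ± 0.66 and 0.65 ± 0.57 (SE) that did not pass.

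The lactate carriers did not pass in either fit, while Slc16a1 passed as lower under identity gene scaling (-0.90, edgeR adjusted p = 0.0106). Slc16a1 encodes MCT1, which moves lactate and pyruvate in both directions, and was 92.8, 103 and 93.0 CPM in Biotin+ replicates 1 to 3 and 96.4, 141 and 94.6 CPM in Biotin- replicates 1 to 3. Slc16a3 encodes MCT4, the exporter of glycolytic cells, and was 64.0, 72.6 and 94.0 CPM in Biotin+ and 108, 52.6 and 105 CPM in Biotin-, in the same order. The groups overlapped for both, with log2 fold changes of -0.20 ± 0.21 and -0.21 ± 0.28 (SE), and Biotin- replicate 2 was the library with the most Slc16a1 and the least Slc16a3. Slc16a6, a ketone body carrier, ranged from 61.1 to 112 CPM in Biotin+ and from 38.2 to 65.9 CPM in Biotin- (log2 fold change 0.63 ± 0.28 SE), with an edgeR adjusted p of 0.203, or of 0.0789 with the block. It passed as higher in the blocked fit without replicate 2 (0.92, edgeR adjusted p = 0.000479). Of its exon length, 21.5% overlaps Amz2 on the opposite strand in GENCODE M21, and the counting's strand setting is not given.

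Among the glucose transporters, Slc2a3 was called higher in the blocked fit and not in the unblocked edgeR fit, and Slc2a1 was called in neither. Slc2a3 encodes GLUT3, a high-affinity importer, and was 93.1, 177 and 170 CPM in Biotin+ replicates 1 to 3 and 64.8, 126 and 50.6 CPM in Biotin- replicates 1 to 3. The groups overlapped, but each Biotin+ library lay above the Biotin- library with the same number. Its log2 fold change of 0.87 ± 0.35 (SE) did not pass (edgeR adjusted p = 0.172) and passed with the block (0.91 ± 0.24 SE, edgeR adjusted p = 0.013), though not there without replicate 3 (0.50, edgeR adjusted p = 0.409). Without the block, Slc2a3 passed with no filter on low counts (edgeR adjusted p = 0.0067) and without Biotin- replicate 2 (1.27, edgeR adjusted p = 0.0478). Slc2a1 encodes GLUT1, the importer induced on T cell activation, and was 158, 141 and 117 CPM in Biotin+ and 199, 131 and 168 CPM in Biotin-, in the same order. The groups overlapped, and the log2 fold change of -0.26 ± 0.22 (SE) passed in neither fit but did under identity gene scaling (-1, edgeR adjusted p = 0.022), where Slc2a3 kept a positive value (0.19). In the blocked fit without replicate 2, Slc2a1 also passed as lower (-0.49, edgeR adjusted p = 0.0142).

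Slc2a8 encodes GLUT8, a hexose transporter of intracellular membranes. It was 20.7, 29.4 and 22.0 CPM in Biotin+ and 14.1, 10.7 and 16.2 CPM in Biotin-, with ranges apart. The log2 fold change of 0.81 ± 0.26 (SE) passed with the block (edgeR adjusted p = 0.0361) and not without the block (edgeR adjusted p = 0.0852), and it was 0.05 under identity gene scaling. The blocked call was lost without each replicate number in turn (edgeR adjusted p = 0.0593 to 0.159). Slc2a6, an intracellular relative, ranged from 8.11 to 23.8 CPM over both groups, and the urate carrier Slc2a9 from 6.3 to 9.63 CPM, with log2 fold changes of -0.11 ± 0.39 and -0.05 ± 0.31 (SE).

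Slc2a10, which encodes GLUT10, was the member called lower, and it rests on few reads. It had 0, 1 and 1 counts in Biotin+ replicates 1, 2 and 3 and 17, 13 and 14 counts in Biotin- replicates 1, 2 and 3. The gene entered the test through its Biotin- libraries alone. From 44 and 2 counts, the level in Biotin- was 19.6 times that in Biotin+, with an exact interval of 5.12 to 167 (95%, counting error only), and the adjusted p was 0.0374 in edgeR. The call was lost when any 1 library was left out (edgeR adjusted p = 0.0589 to 0.152) and with no filter (-4.09, edgeR adjusted p = 0.0643), and a filter of CPM 1 in 3 libraries removed the gene. Slc38a3, a glutamine carrier chosen after its values were seen, had a like pattern below the filter, with 0 counts in all Biotin+ libraries and 14, 10 and 6 in the Biotin- libraries, at least 8.92-fold lower in Biotin+ (floor of 3 counts over the group). Both were low in the same libraries as the stromal markers (175 to 385 CPM in Biotin+ and 1177 to 1596 CPM in Biotin-), whose part in these values was not tested.

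Of the leucine exchanger LAT1, the light chain was called higher in the blocked fit and not in the unblocked edgeR fit, and the heavy chain in neither. Slc7a5, the light chain, was 542, 659 and 756 CPM in Biotin+ replicates 1, 2 and 3 and 439, 402 and 411 CPM in Biotin- replicates 1, 2 and 3. The 2 ranges did not meet, and the Biotin+ libraries spread far more than the Biotin- ones (SD 107 and 19.4 CPM, n = 3 each). The log2 fold change of 0.64 ± 0.21 (SE) missed the threshold in edgeR (adjusted p = 0.0866) and passed with the block (edgeR adjusted p = 0.0203), in DESeq2 (adjusted p = 0.0228) and in limma-voom (adjusted p = 0.0433). Under identity gene scaling it was -0.08, and in the blocked fit the call was lost without replicate 1 (edgeR adjusted p = 0.0515) or 3 (edgeR adjusted p = 0.319). Slc3a2, the CD98 heavy chain, was 1243, 1047 and 784 CPM in Biotin+ and 965, 828 and 726 CPM in Biotin-, in the same order. The groups overlapped, each pair was higher in Biotin+, and neither fit called the log2 fold change of 0.29 ± 0.24 (SE). Summed per kilobase, all light chains stood at 163 to 222 CPM in Biotin+ and 127 to 142 CPM in Biotin-. Slc7a5 made up most of this sum (176 and 113 CPM per kilobase on average), and the other 4 light chains tested had negative log2 fold changes (median of the 5, -0.96).

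Of the other light chains, Slc7a11 and Slc7a8 were lower in the blocked fit. Slc7a11 encodes xCT, which imports cystine for glutathione synthesis in exchange for glutamate, and was 14.6, 5.88 and 5.03 CPM in Biotin+ replicates 1 to 3 and 28.4, 9.98 and 14.7 CPM in Biotin- replicates 1 to 3. Slc7a8 encodes LAT2, a relative of LAT1, and was 10.6, 6.56 and 3.75 CPM in Biotin+ and 25.6, 8.12 and 12.8 CPM in Biotin-, in the same order. For both genes the group ranges overlapped, all 3 pairs were lower in Biotin+, and replicate 1 was the highest of its group. Their log2 fold changes of -1.05 ± 0.48 and -1.15 ± 0.47 (SE) did not pass in edgeR (adjusted p = 0.222 and 0.179) and passed with the block (edgeR adjusted p = 0.00797 and 0.0166). Without the block both passed with no filter (edgeR adjusted p = 0.0114 and 0.00761) and under identity gene scaling (-1.77 and -1.89, edgeR adjusted p = 0.0394 and 0.0299). The blocked call was lost without replicate 3 for Slc7a11 (edgeR adjusted p = 0.141) and without replicate 1 or 3 for Slc7a8 (edgeR adjusted p = 0.116 and 0.204). Slc7a6, the light chain of an exchanger of cationic for neutral amino acids, was 59.5, 53.8 and 75.5 CPM in Biotin+ and 66.8, 72.3 and 71.1 CPM in Biotin- (log2 fold change -0.15 ± 0.20 SE), with overlapping ranges. Slc7a7, its close relative, stayed at or below 4.77 CPM (log2 fold change -0.96 ± 0.66 SE).

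Of the 3 cationic amino acid transporters tested, Slc7a2 passed as lower with the block and the others did not pass. Slc7a1 encodes CAT1, the arginine importer of proliferating cells, and was 204, 169 and 163 CPM in Biotin+ replicates 1 to 3 and 189, 172 and 126 CPM in Biotin- replicates 1 to 3, with overlapping groups and a log2 fold change of 0.14 ± 0.21 (SE). Slc7a2 encodes CAT2, an arginine importer known from activated macrophages, and was 33.5, 8 and 8.11 CPM in Biotin+ and 159, 18.1 and 26.7 CPM in Biotin-, in the same order. Replicate 1 was far above the others in both groups, so the ranges overlapped while every pair was lower in Biotin+ (log2 ratios of -2.24, -1.17 and -1.71). Without the block the log2 fold change was -2.03 ± 0.89 (SE, edgeR adjusted p = 0.225), and without Biotin- replicate 1 it was -0.43 (edgeR adjusted p = 0.795). In the blocked fit it was -1.73 ± 0.24 (SE, edgeR adjusted p = 7.89e-05), and the call held without each replicate number in turn (edgeR adjusted p = 8.48e-06 to 0.00167). Slc7a3, another relative, stayed near 1 CPM or less (0.75 to 1.15 CPM in Biotin+ and 0.548 to 0.632 CPM in Biotin-, log2 fold change 0.69 ± 0.65 SE).

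Slc7a2, Slc7a11 and Slc7a8 had their highest level in Biotin- replicate 1, as did the macrophage marker list. So did 12 of the 33 members tested (36.4%, beside 11.3% of all genes), Slc2a1, Slc2a6, Slc16a3, Slc38a7, Slc43a2 and Slc7a7 among them, and the summed dendritic and B cell lists. The macrophage list summed to 2193, 1643 and 597 CPM in Biotin+ replicates 1, 2 and 3 and 4217, 1248 and 1460 CPM in Biotin- replicates 1, 2 and 3. Arg1, the arginase of macrophages, was 106, 73.6 and 37.6 CPM in Biotin+ and 374, 73.0 and 141 CPM in Biotin-, in the same order. The part of macrophage transcripts in the 3 transporters was not tested. The stromal list was lower in every Biotin+ library than in any Biotin- library (205, 175 and 385 CPM against 1596, 1177 and 1521 CPM). The macrophage list overlapped between the groups and was higher in Biotin+ for replicate 2 (1643 against 1248 CPM). Of its 14 markers tested, 13 had negative log2 fold changes. Mrc1 was 39.4, 13.5 and 6.06 CPM in Biotin+ replicates 1 to 3 and 177, 32 and 22.8 CPM in Biotin-. Itgam was 40.8, 30.2 and 18.8 CPM in Biotin+ and 97.4, 41.2 and 41.2 CPM in Biotin-. Both passed as lower in the blocked fit (edgeR adjusted p = 4.58e-05 and 0.00605), and C1qc did not (edgeR adjusted p = 0.0811).

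**Figure D3:**
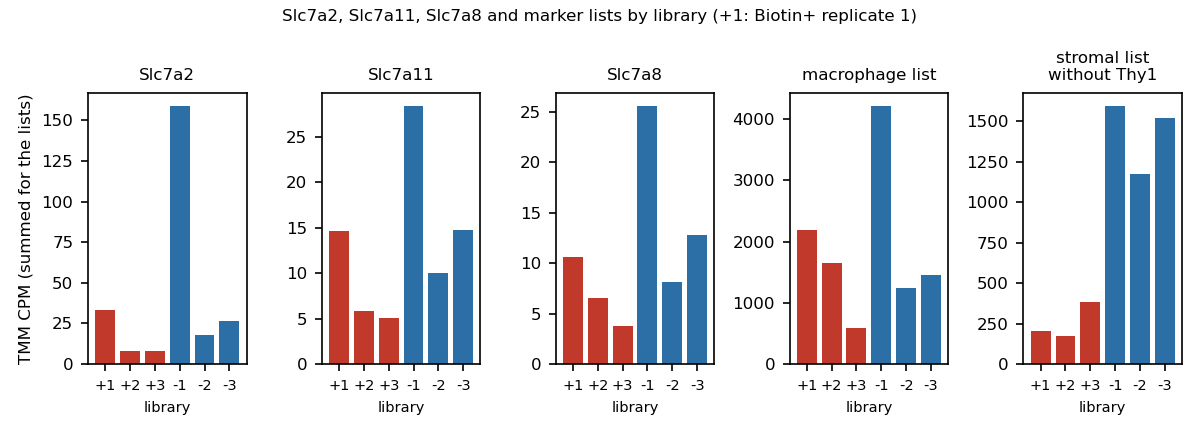
Level by library of Slc7a2, Slc7a11 and Slc7a8 (TMM CPM) beside the summed TMM CPM of the macrophage and monocyte list and of the fibroblast and endothelial list without Thy1. Bars are single libraries, red for Biotin+ replicates 1 to 3 and blue for Biotin- replicates 1 to 3, and Biotin- replicate 1 is the tallest in all 5 panels.

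Glutamine and small neutral amino acid carriers did not pass in either fit (0 of 8 tested; at an unadjusted p under 0.05, which 13.9% of all genes met as lower, Slc38a2 and Slc38a7 were lower). Slc1a5, the glutamine exchanger ASCT2, was 285, 272 and 387 CPM in Biotin+ replicates 1 to 3 and 221, 208 and 260 CPM in Biotin- replicates 1 to 3. Slc38a2, the sodium-coupled carrier SNAT2 that amino acid shortage induces, was 289, 204 and 256 CPM in Biotin+ and 329, 415 and 302 CPM in Biotin-, in the same order. Ranges were apart for both, above for Slc1a5 (log2 fold change 0.46 ± 0.21 SE, edgeR adjusted p = 0.236) and below for Slc38a2 (-0.48 ± 0.22 SE, edgeR adjusted p = 0.217), and under identity gene scaling Slc38a2 passed as lower (-1.17, edgeR adjusted p = 0.00812) and Slc1a5 turned negative (-0.27). Slc1a5 passed as higher in the blocked fit without replicate 2 (0.40, edgeR adjusted p = 0.0307). Slc38a1, the sodium-coupled carrier SNAT1, was 297, 202 and 232 CPM in Biotin+ and 255, 208 and 189 CPM in Biotin-, with overlap and a log2 fold change of 0.16 ± 0.22 (SE).

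Lower levels in Biotin+ that missed the threshold were seen for Slc38a7, a lysosomal glutamine exporter, and Slc1a4, the serine, alanine and cysteine carrier ASCT1. Slc38a7 ranged from 7.71 to 11.1 CPM in Biotin+ and from 10.6 to 20.7 CPM in Biotin- (log2 fold change -0.86 ± 0.32 SE, edgeR adjusted p = 0.133). Slc1a4 ranged from 11.3 to 24.7 CPM and from 16.6 to 35.7 CPM (log2 fold change -0.67 ± 0.35 SE, edgeR adjusted p = 0.297). All 3 pairs were lower in Biotin+ for both genes. Both passed as lower under identity gene scaling (-1.62 and -1.43, edgeR adjusted p = 0.0174 and 0.0389) and in the blocked fit without replicate 2 (edgeR adjusted p = 0.00463 and 0.00706), and Slc38a7 also without Biotin- replicate 2 (-1.18, edgeR adjusted p = 0.0437). Slc38a9, the lysosomal arginine sensor, ranged from 4.26 to 6.38 CPM over both groups, and Slc38a6 and Slc38a10 also overlapped. In the Slc43 family the leucine carrier Slc43a2 was 21.4, 18.4 and 23.1 CPM in Biotin+ and 31.9, 18.9 and 19.1 CPM in Biotin-, so that the groups overlapped (log2 fold change -0.15 ± 0.26 SE). Its relatives Slc43a3, a purine nucleobase carrier, and Slc43a1 had log2 fold changes of 0.04 ± 0.26 and 0.28 ± 0.78 (SE).

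**Figure D4:**
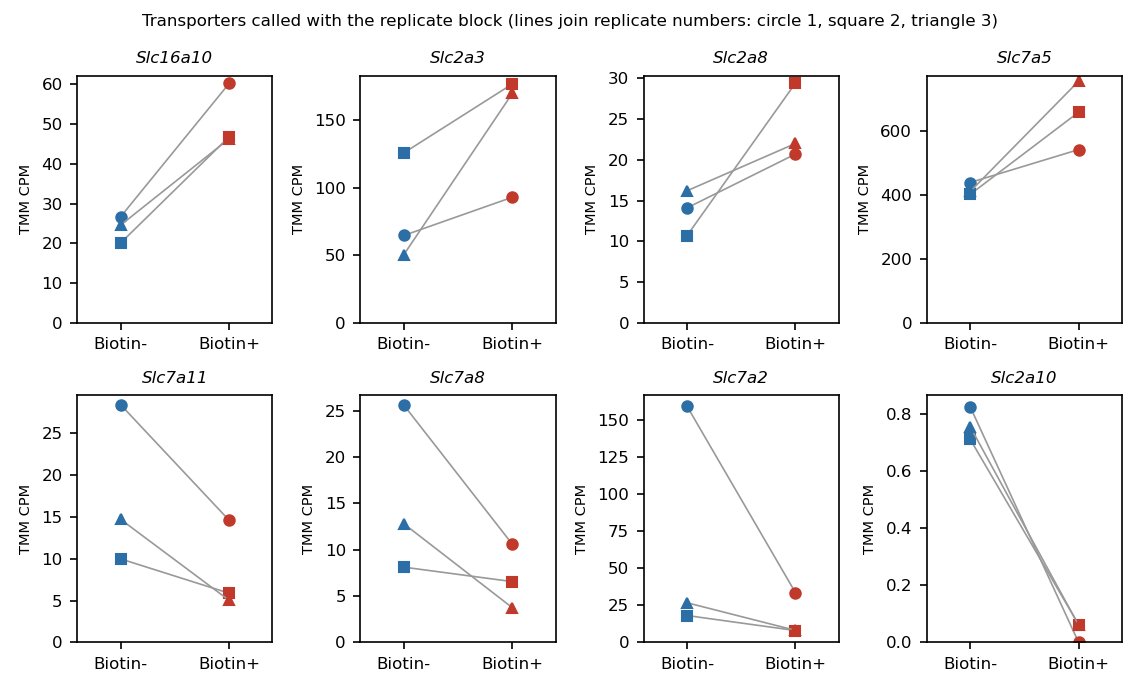
TMM CPM of the 8 transporters called in the blocked fit, Biotin- on the left and Biotin+ on the right of each panel. Lines join libraries with the same replicate number (circle 1, square 2, triangle 3), and in all 8 panels the 3 lines run in the same direction.

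Ratios of 2 transporters within a library do not depend on scaling, and 8 were compared with an exact two-sided permutation test over samples. With 3 libraries against 3 this test cannot go below 0.1, so no ratio could pass, and after adjustment over the 8 ratios the smallest value was 0.4. The ratio of Slc38a2 to Slc38a1 counts had log2 values of -0.04, 0.02 and 0.14 in Biotin+ replicates 1 to 3 and 0.36, 1 and 0.67 in Biotin- replicates 1 to 3. The groups were apart, with a difference of -0.64 (exact permutation p = 0.1). The ratio of Slc7a6 to Slc7a5 was also apart, with means of -3.38 ± 0.22 and -2.58 ± 0.13 (SD, n = 3 each, exact permutation p = 0.1). The ratio of Slc2a3 to Slc2a1 was -0.76, 0.32 and 0.54 in Biotin+ and -1.62, -0.06 and -1.73 in Biotin-. It was higher in Biotin+ in 3 of 3 pairs with overlapping groups, a difference of 1.17 (exact permutation p = 0.2). Per kilobase, Slc2a3 stood at 0.285 to 0.705 of the Slc2a1 level in Biotin+ and at 0.146 to 0.464 in Biotin-. The ratio of Slc7a11 to Slc7a5 was lower in all 3 pairs, with overlapping groups and a difference of -1.72 (exact permutation p = 0.2). For Slc7a5 to Slc3a2, Slc1a5 to Slc7a5, Slc16a3 to Slc16a1, and Slc16a1 to its chaperone Bsg (basigin), the groups overlapped and differed by 0.36, -0.19, 0.03 and -0.31.

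**Figure D5:**
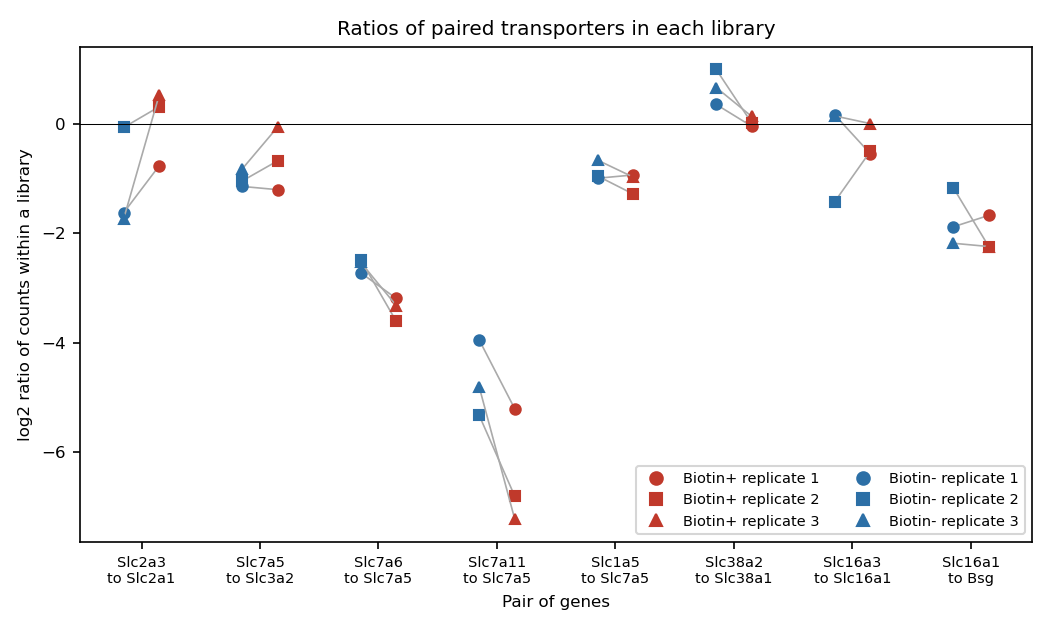
Log2 ratio of counts of 2 genes within each library, for 8 pairs of genes. Blue points on the left of each pair are Biotin- and red points on the right Biotin+, lines join the same replicate number, and the groups are apart for Slc7a6 to Slc7a5 and Slc38a2 to Slc38a1.

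The genes around these transporters were mostly not called. Of all genes tested, 1.53% were called higher and 6.72% lower without the block. With the block these shares were 5.60% and 12.0%, and under identity gene scaling without the block 0.217% and 28.4%. Of 18 tested partners and regulators, 0 were higher and 2 lower, Myc, a transcription factor that induces amino acid and glucose transporters on activation (log2 fold change -1.35 ± 0.23 SE, edgeR adjusted p = 0.00837), and Nedd4l, a ubiquitin ligase acting on membrane transporters (-1.74 ± 0.31 SE, edgeR adjusted p = 0.0101). Myc was 45.6, 56.3 and 65.5 CPM in Biotin+ and 112, 139 and 176 CPM in Biotin-, apart in the direction opposite to Slc7a5. Txnip, which removes GLUT1 from the cell surface, averaged 262 ± 48.1 CPM (SD, n = 3) in Biotin+ against 174 ± 28.2 CPM (SD, n = 3) in Biotin-. It passed as higher in the blocked fit (edgeR adjusted p = 0.0267) and in limma-voom (adjusted p = 0.048), and not in the unblocked edgeR fit (adjusted p = 0.13). Foxo1 (log2 fold change 0.81 ± 0.37 SE) passed with the block (edgeR adjusted p = 0.0272) and, unblocked, with no filter (edgeR adjusted p = 0.0193). Under identity gene scaling neither Txnip nor Foxo1 was called, without the block (-0.12 and 0.14) or with it (-0.13 and 0.01). Their blocked calls held without replicate 2 but were lost without replicate 1 (edgeR adjusted p = 0.206 and 0.292) or 3 (edgeR adjusted p = 0.35 and 0.279). Of 37 genes of amino acid sensing by mTORC1, 1 was higher, Lamtor4, a subunit of the lysosomal Ragulator complex (0.95 ± 0.24 SE, edgeR adjusted p = 0.0343), and 0 were lower. With the block 1 was higher and 1 lower, Fnip2 (-1.10, edgeR adjusted p = 0.00519). The blocked call of Fnip2 held without each replicate number in turn (edgeR adjusted p = 0.0058 to 0.0385). Without the block Fnip2 passed as lower in DESeq2 (adjusted p = 0.0378) and not in edgeR with TMM and the filter (adjusted p = 0.104). The Lamtor4 call was lost with library size scaling (0.72, edgeR adjusted p = 0.0684), without Biotin+ replicate 2 (edgeR adjusted p = 0.0785) and without Biotin- replicate 1, 2 or 3 (edgeR adjusted p = 0.085 to 0.146), and identity gene scaling gave 0 higher and 15 lower. Their summed level was 1231 to 1276 CPM in Biotin+ and 1246 to 1261 CPM in Biotin-.

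Of 24 tested enzymes of amino acid metabolism, 2 passed as lower and none as higher, and with the block 5 passed as lower. Among all genes tested, 6.72% were lower and 1.53% higher, and with the block 12.0% were lower. Called without the block were Bcat1, the cytosolic enzyme that begins the breakdown of branched-chain amino acids (log2 fold change -1.07 ± 0.27 SE, edgeR adjusted p = 0.0354), and Pycr1, of proline synthesis (-1.20 ± 0.32 SE, edgeR adjusted p = 0.0459). Gpt2, the mitochondrial alanine aminotransferase, and Cth, which makes cysteine, passed as lower in the blocked fit (edgeR adjusted p = 0.000725 and 0.00351). Without the block they passed in DESeq2 (adjusted p = 0.0334 and 0.0419) but not in edgeR with TMM and the filter (adjusted p = 0.126 and 0.135). In unblocked edgeR both passed as lower with no filter (edgeR adjusted p = 0.000133 and 0.00322) and under identity gene scaling (edgeR adjusted p = 0.0322 and 0.0385). Gpt2 also passed without Biotin+ replicate 3 (edgeR adjusted p = 0.0343). Leaving out Biotin+ replicate 1 or 2 or Biotin- replicate 1 or 3 lost the unblocked calls of Bcat1 (edgeR adjusted p = 0.0856 to 0.162) and Pycr1 (edgeR adjusted p = 0.101 to 0.207). Identity gene scaling gave 11 enzymes lower, where 28.4% of all genes were lower. Of 22 genes of glucose and lactate use 0 were called in the unblocked edgeR fit. The block gave 4 higher and 2 lower (beside 5.60% and 12.0% of all genes). Aldoa and Pfkp were among the higher (edgeR adjusted p = 0.0124 and 0.0277) and Pfkm and Hk3 the lower (edgeR adjusted p = 0.0291 and 0.0344). The blocked calls of these named genes were lost without replicate 3 (edgeR adjusted p = 0.207 to 0.474). Those of Pfkp, Pfkm and Hk3 were also lost without replicate 1 (edgeR adjusted p = 0.0821 to 0.275). Without the block, Aldoa, Pfkm and Hk3 passed in DESeq2 (adjusted p = 0.0189, 0.0221 and 0.0213) and with no filter (edgeR adjusted p = 0.0168, 0.0333 and 0.000321). Aldoa and Pfkm also passed in limma-voom (adjusted p = 0.0426 and 0.0471), and Pfkp passed in none of these. Identity gene scaling gave 0 higher and 7 lower, with Aldoa at 0.23 and Pfkp at -0.09, while Pfkm and Hk3 passed as lower (edgeR adjusted p = 0.0103 and 0.0167). The counts of lower genes stand in libraries where stromal markers were lower as well (175 to 385 CPM in Biotin+ and 1177 to 1596 CPM in Biotin-), and their part was not tested. Of the 154 other solute carriers tested, outside the 7 families, 3 were higher and 8 lower (beside 1.53% and 6.72% of all genes), with a median log2 fold change of -0.03.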

How the data were processed

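The values are raw read counts per gene as deposited, with each sample in its own column. Trim Galore 0.6.7, STAR 2.7.10a, Picard 1.14, featureCounts 2.0.1 and GRCm39 are named in the submitters' processing notes; which annotation and strand setting were used in counting is not given in the sources used here. Totals were 16423106 to 19640693 counts per library, and without molecular identifiers reads are not independent molecules.

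The whole table was fitted with edgeR 4.0.16 in R 4.3.3 (filterByExpr, TMM, robust quasi-likelihood fit on the group alone, Benjamini-Hochberg adjustment, threshold 0.05), after a check on simulated counts. SE is the log2 fold change over the root of F. DESeq2 1.42.0, limma 3.58.1 (voom), other scalings and filters and left-out libraries were alternatives. Nothing says that replicates came from separate animals, and p-values then reflect no more than the variation among these 6 libraries, which may be technical. Deviations from group means correlated at 0.449, 0.268 and 0.443 for same-numbered libraries across the groups and at -0.312 to -0.12 otherwise, so the numbers were taken as pairs. Because deviations cancel within a group, positive values for the same numbers push the others down, and no test of the pairing was run. Exon lengths came from GENCODE M21 and windows from RefSeq, both on GRCm38, so no gene coordinates of the files are given.

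The members and lists were chosen with earlier results of these data known. Named with values were members that passed, 13 transporters picked by role and up to 2 others per substrate group, and up to 4 genes of each other list by p. The values of 1 tested member are not reported here. The lists were transporter partners, mTORC1 sensing, amino acid enzymes, glucose and lactate use, CD8 T identity and markers of stromal, macrophage, dendritic, neutrophil, epithelial, B, CD4 T and NK cells (the last 6 with 0 called in the unblocked edgeR fit, and with the block Siglech and Cd4 lower and Cdh1 and Klrb1c higher).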

Additional observations from a re-analysis of the deposited data

How the results depend on the processing

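Both counts of called members (1 higher, 1 lower) moved with the processing. The number higher was 0 with library size scaling (0.629% of all genes), 0 with identity gene scaling, 2 with no filter (1.77%, Slc16a10 and Slc2a3), 2 with DESeq2, 2 with limma-voom and 4 with the replicate block. The number lower was 10 with identity gene scaling, 3 with no filter (6.69%, Slc7a8, Slc7a11 and Slc38a3), 0 with a filter of CPM 1 in 3 libraries (7.18%) and 4 with the replicate block. Leaving out single libraries gave 0 to 1 higher (0.168% to 1.45% of all genes) and 0 to 1 lower (1.75% to 7.58%). Without Biotin- replicate 2 these were Slc2a3 and Slc38a7 in place of Slc16a10 and Slc2a10, and Slc2a10 was called in none of the left-out fits. Alternatives chosen after seeing the data were the replicate block with identity gene scaling (0 higher, 21 lower, beside 0.749% and 51.8% of all genes) and the replicate block without 1 replicate number (1 to 5 higher, 1 to 7 lower, beside 1.69% to 8.55% and 8.58% to 14.9%). Fewer samples or genes enter some of these fits, and otherwise the cause was not tested.

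Among 28 members followed, DESeq2 size factors turned no direction and changed no call. Identity gene scaling turned Slc1a5 (-0.27), Slc38a1 (-0.54), Slc3a2 (-0.43), Slc7a1 (-0.56), Slc7a5 (-0.08), Slc7a3 (-0.01), Slc43a1 (-0.40), Slc43a3 (-0.71) and Slc16a6 (-0.03), and with the replicate block they were -0.27, -0.56, -0.45, -0.56, -0.09, -0.04, -0.87, -0.73 and -0.09 in that order. Library size scaling turned Slc38a1 (-0.03), Slc7a1 (-0.06) and Slc43a3 (-0.20). Slc43a3 was also turned by upper quartile scaling (-0.04), no filter (-0.0019), limma-voom (-0.16) and the replicate block (-0.01), which turned Slc43a1 too (-0.16). Left-out libraries turned Slc38a1 (-0.0022 to 0.29), Slc43a2 (-0.35 to 0.14), Slc7a1 (-0.01 to 0.26), Slc43a1 (-0.90 to 0.75), Slc43a3 (-0.26 to 0.25) and Slc2a6 (-0.35 to 0.32), and in the blocked fit without 1 number Slc16a3 (-0.53 to 0.15), Slc43a2 (-0.31 to 0.12), Slc43a1 (-1.01 to 0.48), Slc43a3 (-0.29 to 0.22) and Slc2a6 (-0.46 to 0.10). Of these values outside identity gene scaling, that of Slc16a3 without replicate 2 passed (-0.53, edgeR adjusted p = 0.0289).

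The difference in the ratio of Slc16a3 to Slc16a1 ran from -0.50 to 0.29 without single libraries, and the other 7 ratios kept their direction, also with a pseudocount of 1. With the longest transcript as length, 9 of the 10 highest members were shared. Depth limits Slc2a10, Slc38a3, Slc7a3 and the untested members.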
